A study of Mus musculus with 34 samples.

Results

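Gbx2, Tcf7l2, Lef1, Foxp2, Sox14, Slitrk6, Prox1 and Rora are 8 genes known from the developing thalamus and the regions beside it. They were chosen by name, with earlier results of these data known. Every array probe whose transcript accession belongs to them was read. This gave 11 of 55681 probes for 8 of the 20145 genes that could be named. Tcf7l2 had 3 probes, Foxp2 had 2 and the other 6 genes had 1 each. Where a gene had several, its main probe was the one detected in the most fractions, with ties settled by the higher median level. For both genes this tie-break decided, since A_55_P2030160 and A_55_P2143724 of Tcf7l2 and both probes of Foxp2 were each detected in all 34 fractions.

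The brains were those of male C57BL/6J mice, 3 days post-natal, with no treatment or altered allele given in the labels. A brain cut along the coronal plane gave 15 fractions, a brain cut horizontally gave 8 and a brain cut sagittally gave 11, each fraction being 500 µm of tissue, except that sagittal fractions 1 and 11 pooled 2 neighbouring cuts. Each fraction was measured on a single array and each plane came from 1 mouse, so plane and mouse cannot be told apart. Every p-value below measures only the spread between fractions of 1 brain, not between mice. In whole fractions, fewer cells of a type and less RNA per cell cannot be told apart either.

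The thalamus relays sensory and motor signals to the cerebral cortex, and its progenitors lie beside an organiser that sends Wnt and Sonic hedgehog signals. Tcf7l2 and Lef1 bind DNA with beta-catenin in the Wnt pathway and are known together with the homeobox gene Gbx2 from the caudal zone that makes relay neurons, whereas Sox14 is known from GABAergic neurons of the rostral zone and of the midbrain. Foxp2, Prox1 and Rora encode transcription factors that are also known from other regions, among them the cerebellum for Foxp2 and Rora and the dentate gyrus for Prox1, and Slitrk6 encodes a leucine-rich repeat protein of the neuronal membrane.

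Between 29598 and 37091 of 59305 spots per array were well above background, and the 75th percentiles of the arrays ran from 8.07 to 9.18 on the log2 scale. The arrays lay on 5 slides. Slide 2 held coronal fractions 1 to 8, slide 3 the other coronal fractions except fraction 12, and slide 5 held fractions of all 3 planes. From which pole the fractions were numbered is not in the labels. Along the coronal plane, all 8 genes of a cerebellum list and 4 of 5 genes of a hindbrain list peaked in fractions 1 to 3, 5 of 6 midbrain genes in fractions 4 to 6 (their sum was also high in fractions 14 and 15, Th being on the olfactory bulb list too), 6 of 7 detected hypothalamus genes in fractions 7 to 9, all 7 striatum genes in fractions 10 to 12, and 6 of 7 cortex genes and all 5 olfactory bulb genes in fractions 13 to 15. The 7 detected genes of a hippocampus list peaked in every block except fractions 7 to 9.

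The RefSeq windows of assembly GRCm38.p6, 250 bases ending just before an annotated transcription start, were found for 7 of the 8 genes, 12 windows in all, and were searched on both strands for short core motifs of the factor families among the members. Those of Sox14 and Tcf7l2 are shown because each holds a core motif of another member's family, and that of Gbx2 because its profile differed most from that of Sox14 along the horizontal plane. Capitals mark the TCF/LEF core CTTTGA in Sox14 and the SOX core ATTGTT in Tcf7l2, and the Gbx2 window holds none of the motifs searched.
Sox14, chr9:99876171-99876420, minus strand: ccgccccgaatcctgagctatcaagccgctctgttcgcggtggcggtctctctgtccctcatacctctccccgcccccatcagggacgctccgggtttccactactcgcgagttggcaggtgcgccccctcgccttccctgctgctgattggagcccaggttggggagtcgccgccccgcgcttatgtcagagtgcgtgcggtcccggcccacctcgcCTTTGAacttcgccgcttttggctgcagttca
Tcf7l2, chr19:55741560-55741809, plus strand: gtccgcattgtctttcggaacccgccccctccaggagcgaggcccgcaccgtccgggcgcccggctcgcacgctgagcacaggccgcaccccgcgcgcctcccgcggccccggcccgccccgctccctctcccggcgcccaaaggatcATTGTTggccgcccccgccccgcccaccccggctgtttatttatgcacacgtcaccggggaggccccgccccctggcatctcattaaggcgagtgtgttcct
Gbx2, chr1:89931177-89931426, minus strand: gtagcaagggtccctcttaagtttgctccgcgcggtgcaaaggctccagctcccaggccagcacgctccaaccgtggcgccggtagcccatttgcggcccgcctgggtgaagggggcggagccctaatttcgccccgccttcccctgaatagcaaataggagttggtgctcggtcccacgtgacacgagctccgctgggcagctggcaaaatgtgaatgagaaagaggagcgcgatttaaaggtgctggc
The Sox14 match began 32 bases before the start and the Tcf7l2 match 102 bases before it. A Lef1 window that lies inside the gene, at an alternative start, held the TCF/LEF core in its reverse form TCAAAG at 180 and at 120 bases before that start. The TCF/LEF core stood in 13.8% and the SOX core in 9.42% of all 32851 windows of this length, and matches in 2 and in 1 of the 12 member windows are a description, not sites of binding. The homeobox core TAATTA (4.84% of all windows), the forkhead core TGTTTAC (3.17%) and the ROR core AGGTCA (14.0%) were in no member window.

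Levels are given as the log2 of an array's processed signal minus the 75th percentile of that array, called the log2 level here, and can be compared between fractions of a probe but not between probes. 5 of the 8 genes were well above background in all 34 fractions on their main probe. Prox1 was so in 33 fractions, Gbx2 in 31 and Sox14 in 21.

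**Figure D1:**
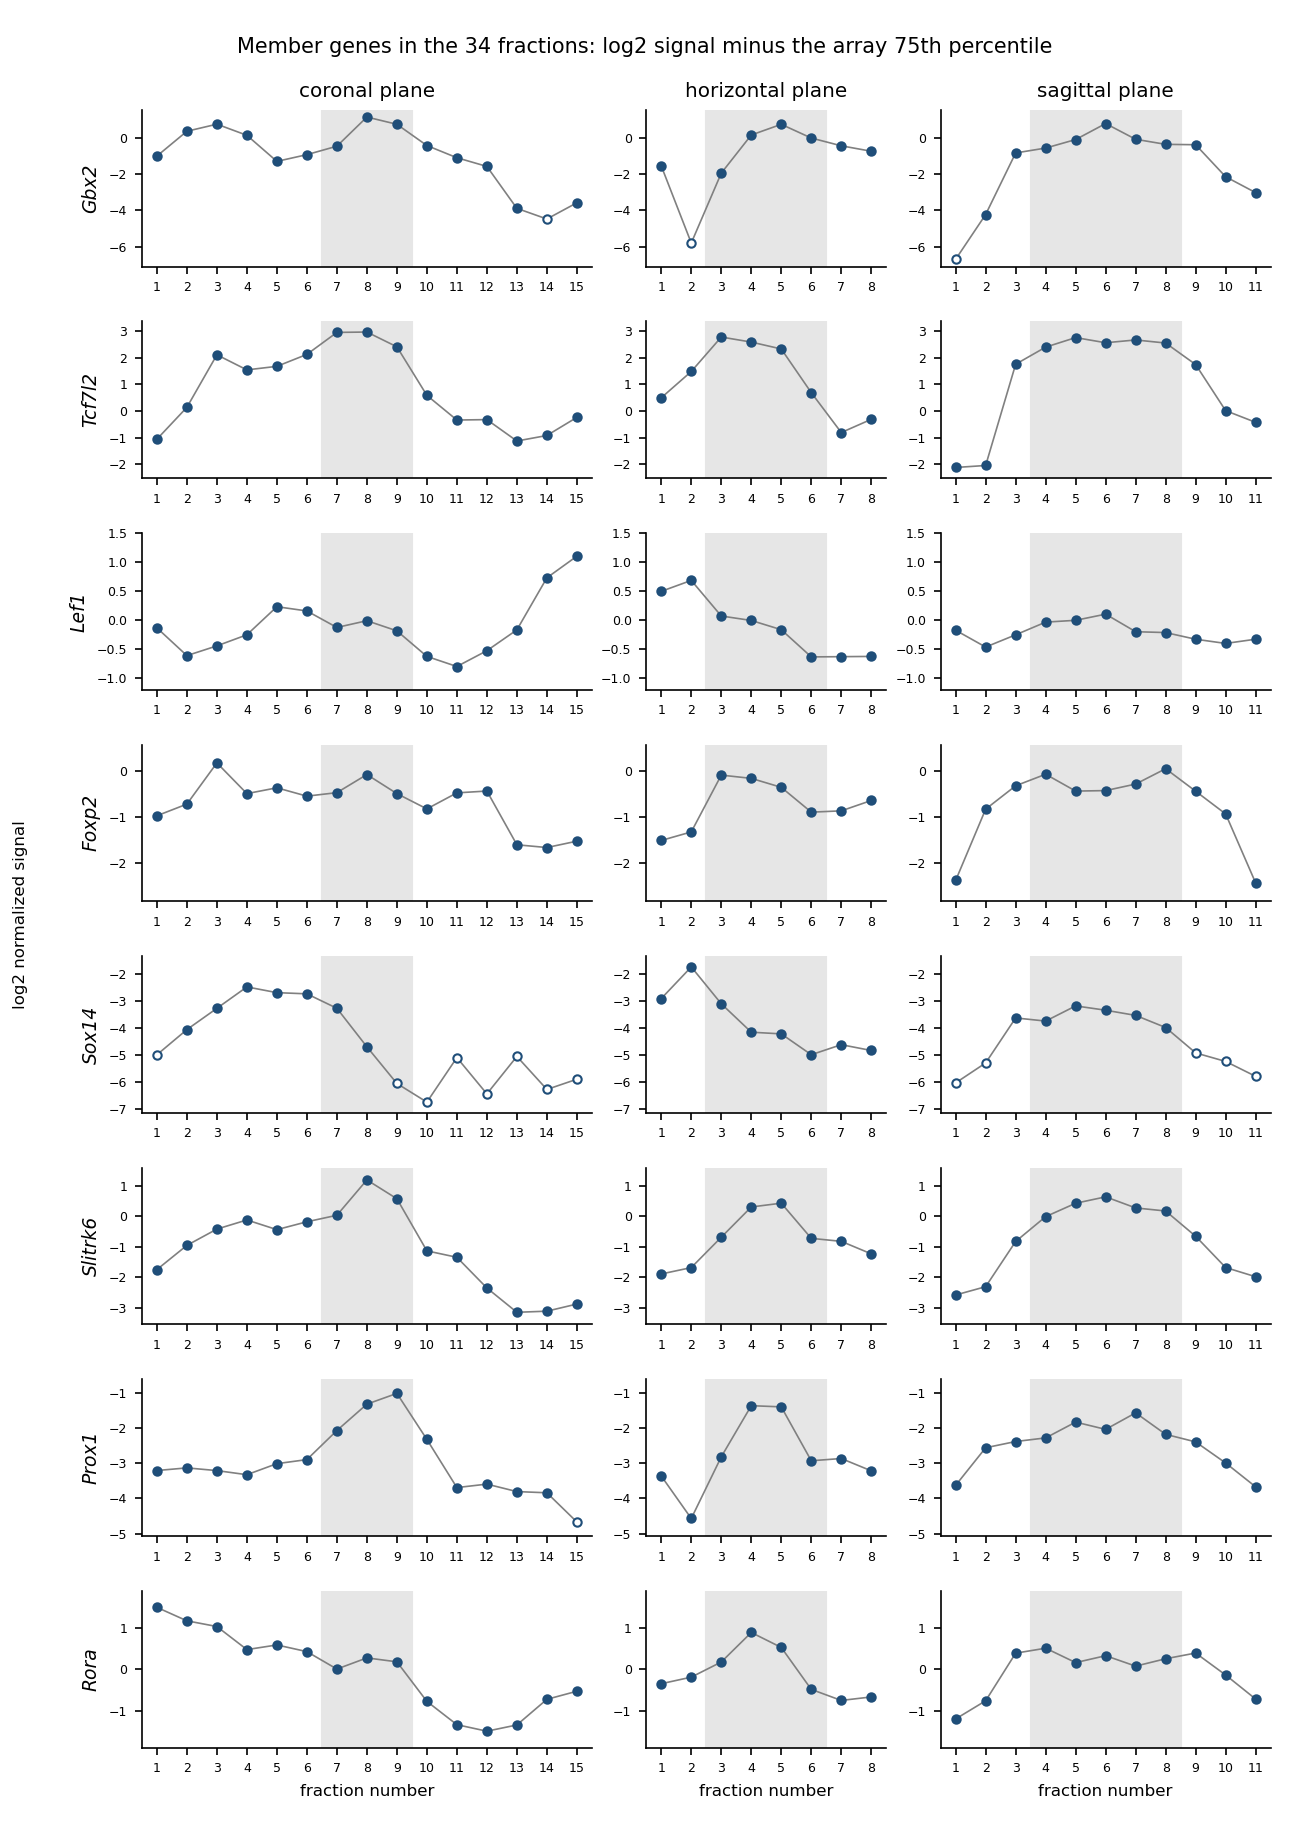
Log2 level of the main probe of each gene (rows; y axis, log2 units) in each fraction (x axis, fraction number) of the coronal, horizontal and sagittal brain; each point is 1 array, open points were not well above background and the grey band marks the middle block. Gbx2, Tcf7l2, Slitrk6 and Prox1 have their highest coronal levels inside fractions 7 to 9, Gbx2 with another high in fractions 2 and 3. Sox14 peaks in fraction 4, Rora in fraction 1 and Lef1 in fraction 15.

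Along the coronal plane the genes did not peak together. The highest coronal level fell in fractions 7 to 9, where the hypothalamus list also peaked, for 4 of the 8 genes, namely Gbx2, Tcf7l2, Slitrk6 and Prox1, beside 13.5% of the 15120 genes detected in at least 17 fractions. Of the 19 genes of a thalamic relay list 5 peaked there too, but as many peaked in fractions 13 to 15. Of the rest, 1 peaked in fractions 1 to 3, 4 in fractions 4 to 6 and 4 in fractions 10 to 12. No test here separated thalamus from hypothalamus, so fractions 7 to 9 are called the middle block and not the thalamus. Foxp2 peaked in fraction 3, Sox14 in fraction 4, Rora in fraction 1 and Lef1 in fraction 15. In the horizontal plane 6 of 8 genes peaked in fractions 3 to 6 (34.7% of all genes), all but Lef1 and Sox14, and in the sagittal plane all 8 peaked in fractions 4 to 8 (35.1% of all genes). The hypothalamus and relay lists peaked apart in the horizontal plane. All 7 detected hypothalamus genes peaked there in fractions 7 and 8, and 11 of the 19 relay genes in fractions 3 to 6. Which list the 8 genes follow was not tested.

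Tcf7l2, the Wnt effector known from the whole thalamus, had coronal log2 levels of -1.06, 0.14 and 2.11 in fractions 1 to 3, of 1.54, 1.68 and 2.13 in fractions 4 to 6 and of 2.95, 2.97 and 2.41 in fractions 7 to 9. They fell to 0.59, -0.34 and -0.32 in fractions 10 to 12 and were -1.13, -0.92 and -0.24 in fractions 13 to 15. All 3 middle fractions thus lay above all 12 others, and these 3 of 15 fractions held 49.5% of the summed coronal signal. In the horizontal plane the log2 level was 0.50 and 1.48 in fractions 1 and 2, reached 2.78, 2.59 and 2.33 in fractions 3 to 5 and dropped to 0.69, -0.81 and -0.31 in fractions 6 to 8. Sagittal levels formed a plateau between 2.40 and 2.76 in fractions 4 to 8, with -2.12 and -2.05 in fractions 1 and 2 and 0.01 and -0.43 in fractions 10 and 11.

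The 3 Tcf7l2 probes belong to 3 transcript accessions and did not span the same range. The main probe, A_55_P2030160, covered 4.09 log2 units along the coronal plane, A_55_P2260094 covered 5.95 with 11 of 15 fractions well above background, and A_55_P2143724 covered 1.45 with all 15. The profiles of the first pair correlated at r = 0.98 over the 15 coronal, 0.96 over the 8 horizontal and 0.99 over the 11 sagittal fractions, whereas A_55_P2143724 correlated with the main probe at 0.76, 0.92 and 0.87. All 3 had their highest coronal level in fraction 7 or 8. The coronal difference tested below was 2.43 on the main probe, 3.02 ± 0.76 on A_55_P2260094 (adjusted p = 0.0697) and 0.50 ± 0.19 on A_55_P2143724 (adjusted p = 0.153), so Tcf7l2 was called there on the main probe but not on A_55_P2143724, which was detected in as many fractions, while in the sagittal plane all 3 probes passed. Probe sequences were not used here, so which exons each probe reads was not tested.

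**Figure D2:**
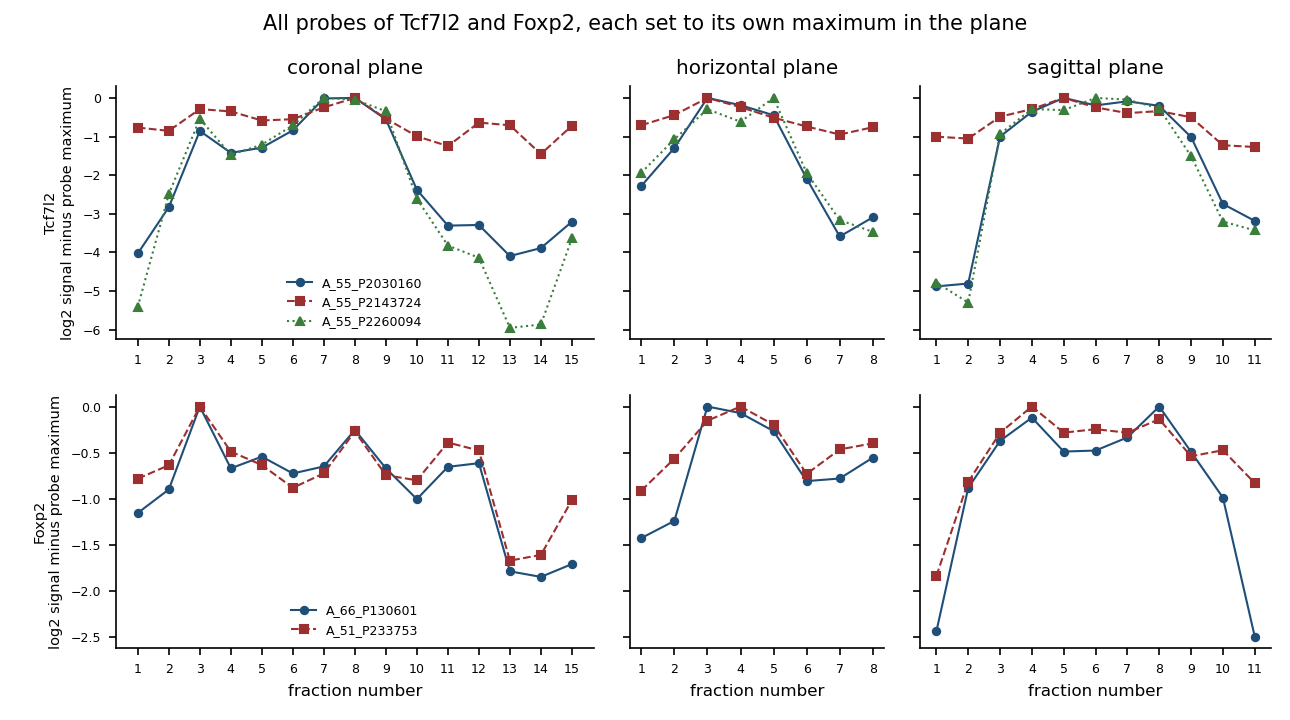
Log2 level of every probe of Tcf7l2 (top) and Foxp2 (bottom) minus that probe's highest value in the plane (y axis, log2 units) against the fraction number (x axis); each point is 1 array. Tcf7l2 probe A_55_P2143724 spans 1.45 log2 units along the coronal plane where the main probe spans 4.09, and the Foxp2 probes follow each other.

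Lef1, the other TCF/LEF factor of the group, had another profile. Its coronal log2 levels ran from -0.80 in fraction 11 to 1.11 in fraction 15, with a second high of 0.23 in fraction 5 and a median of -0.16. Its middle fractions, between -0.18 and -0.01, lay within the range of the others. Along the horizontal plane it was highest in fractions 1 and 2 (0.50 and 0.69) and lowest in fractions 6 to 8 (between -0.63 and -0.62), so fractions 1 and 2 lay above all others. Its sagittal levels spanned only 0.57 log2 units, and 47.0% of the genes had a smaller range.

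Gbx2, a homeobox gene needed for thalamic neurons to take their identity, had 2 coronal highs. Its log2 level was 0.36 and 0.75 in fractions 2 and 3, sank to -1.30 in fraction 5 and rose again to 1.14 and 0.74 in fractions 8 and 9. From there it fell to -3.90, -4.48 and -3.59 in fractions 13 to 15, of which fraction 14 was not well above background. The high in fractions 2 and 3 lay in the block where the cerebellum and hindbrain lists peaked. Horizontal levels were highest in fraction 5 (0.74) and the value of fraction 2, -5.81, was not well above background. Sagittal levels ran from -6.70 in fraction 1, not well above background, to 0.78 in fraction 6.

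Slitrk6 and Prox1 were highest beside each other. Slitrk6 had coronal log2 levels of 0.04, 1.20 and 0.58 in fractions 7 to 9, against -0.43 to -0.12 in fractions 4 to 6, and -3.15 to -2.88 in fractions 13 to 15, and its middle fractions lay above all others. Prox1, a homeobox factor, had -2.07, -1.32 and -1.02 in fractions 7 to 9 and -2.32 in fraction 10, and lay between -3.33 and -2.90 in fractions 4 to 6. In all 3 middle fractions Prox1 too was above the other 12. In the horizontal plane Slitrk6 peaked at 0.31 and 0.43 and Prox1 at -1.37 and -1.40, each in fractions 4 and 5, with every other fraction lower. Along the sagittal numbers Slitrk6 ranged from -2.58 in fraction 1 to 0.64 in fraction 6, and Prox1 from -3.67 in fraction 11 to -1.57 in fraction 7.

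Foxp2, a forkhead factor, was well above background in all 15 coronal fractions. Its log2 levels stayed between -0.98 and 0.17 in fractions 1 to 12 and dropped to between -1.67 and -1.53 in fractions 13 to 15, so that this block lay below all others. Horizontal levels were highest in fractions 3 and 4 (-0.09 and -0.16) and lowest in fraction 1 (-1.52). Sagittal levels were -2.39 in fraction 1 and -2.44 in fraction 11 and reached 0.05 in fraction 8. The other Foxp2 probe, A_51_P233753, correlated with the main probe at r = 0.92, 0.92 and 0.85 over the coronal, horizontal and sagittal fractions.

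Rora, an orphan nuclear receptor known for its part in cerebellar Purkinje cells, declined along the coronal numbers as far as fraction 12. Its log2 level was 1.51 in fraction 1, lay between 0.01 and 0.28 in fractions 7 to 9 and reached its low of -1.50 in fraction 12, with -0.53 in fraction 15, and the summed cerebellum list also peaked in fraction 1. Fractions 1 to 3 lay above all others. The horizontal peak was 0.90 in fraction 4, and the sagittal levels ran from -1.20 in fraction 1 to 0.52 in fraction 4, with 8 of 11 fractions within 1 log2 unit of the highest.

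Sox14, a SOX factor of GABAergic neurons, was the gene of the group with the fewest measured fractions. Its coronal log2 level rose from -4.06 in fraction 2 to -2.47, -2.68 and -2.73 in fractions 4 to 6 and declined to -3.27 and -4.70 in fractions 7 and 8, and fractions 1 and 9 to 15 were not well above background. Fractions 4 to 6, where the midbrain list peaked, were at least 4.08-fold brighter than fractions 10 to 12 and at least 3.39-fold brighter than fractions 13 to 15. These bounds set the mean of fractions 4 to 6 against, for each dim array, the higher of the lowest signal called well above background and the probe's own signal. Horizontally it was highest in fraction 2 (-1.73), 1.18 log2 units above the next fraction. In the sagittal plane fractions 3 to 8 were well above background, with a high of -3.18 in fraction 5, and fractions 1, 2 and 9 to 11 were not.

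**Figure D3:**
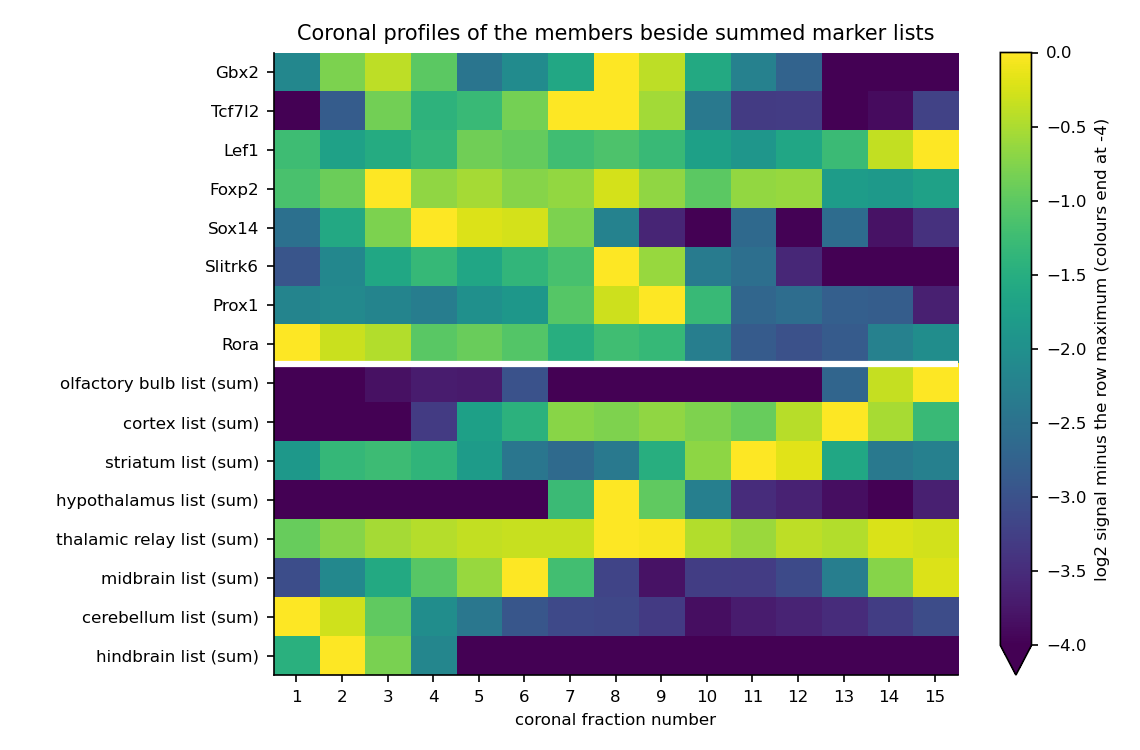
Coronal log2 level of each gene (top 8 rows) and of the summed signal of marker lists (bottom 8 rows), each minus its own highest fraction (colour, log2 units, ending at -4), against the coronal fraction number (x axis). Gbx2, Tcf7l2 and Slitrk6 are highest in fraction 8 as the hypothalamus and thalamic relay lists are, and Gbx2 has another high in fractions 2 and 3. Sox14 is highest in fraction 4 and the midbrain list in fraction 6, and Rora is highest in fraction 1 as the cerebellum list is.

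Whether the middle of each axis differed from the rest was tested with limma on block means over all detected probes. Along the coronal plane, 3 of the 8 genes were higher in fractions 7 to 9 than in the other blocks at a Benjamini-Hochberg adjusted p under 0.05, and none was lower, where 1.12% of all 33788 probes were called and 0.698% were called higher. At an unadjusted p under 0.05, 5 genes were higher, beside 11.1% of the probes. Slitrk6 was 4.26-fold higher (log2 difference 2.09 ± 0.30 SE, adjusted p = 0.0183), Prox1 3.79-fold (1.92 ± 0.29, adjusted p = 0.0220) and Tcf7l2 5.38-fold (2.43 ± 0.47, adjusted p = 0.0436). Gbx2, with 1.90 ± 0.43, missed the threshold (adjusted p = 0.0558), as did Foxp2 with 0.44 ± 0.19, Rora with 0.24 ± 0.18, Lef1 with 0.00 ± 0.21 and Sox14 with -0.03 ± 0.52. The median log2 difference was 1.17 over the 8 genes and -0.02 over all probes. With slide as a block Slitrk6 (1.99 ± 0.29, adjusted p = 0.0291) and Prox1 (1.99 ± 0.29, adjusted p = 0.0358) kept their calls and Tcf7l2 (2.30 ± 0.54, adjusted p = 0.115) did not. That fit set fractions 7 and 8 against fractions 1 to 6, and fraction 9 alone against fractions 10, 11 and 13 to 15. Fraction 12, the only coronal fraction on slide 5, did not count in it. The kept calls thus rest in part on fraction 9 alone. Within slide 2 and within slide 3 the differences were 1.26 and 2.72 for Slitrk6, 1.44 and 2.54 for Prox1 and 1.87 and 2.73 for Tcf7l2, all without a call, and Rora had opposite signs, -0.73 and 1.15. Without fraction 8 or without fraction 9 no member passed, and Tcf7l2 also lost its call without any of fractions 2, 4, 5, 6, 7, 11, 12 or 14.

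The middle block was also set against each neighbouring block, and whether these differences differed from each other was not tested. Against fractions 10 to 12, 4 of 8 genes were higher in fractions 7 to 9 and none lower, where 1.60% of all probes were called and 0.743% were called higher. At an unadjusted p under 0.05, 6 genes passed, all higher, beside 22.8% of the probes in either direction and 8.35% higher. Tcf7l2 was 6.97-fold higher on its main probe (log2 difference 2.80 ± 0.60, adjusted p = 0.0439), Slitrk6 4.64-fold (2.21 ± 0.38, adjusted p = 0.0256), Prox1 3.32-fold (1.73 ± 0.36, adjusted p = 0.0429) and Rora 2.58-fold (1.37 ± 0.22, adjusted p = 0.0231). By limma the other Tcf7l2 probes were not called, with 3.39 ± 0.97 on A_55_P2260094 (adjusted p = 0.0820) and 0.70 ± 0.23 on A_55_P2143724 (adjusted p = 0.114). Against fractions 4 to 6, where 0.201% of all probes were called and 0.0622% were called higher, limma called 0 of 8 genes. At an unadjusted p under 0.05, 3 passed, of which 2 were higher, beside 9.19% of the probes in either direction and 5.05% higher. Those were Prox1 (1.61 ± 0.36, adjusted p = 0.124), Slitrk6 (0.85 ± 0.38, adjusted p = 0.522) and, in the other direction, Sox14 (-2.05 ± 0.65, adjusted p = 0.315). With slide as a block the differences from fractions 10 to 12 were 2.29 for Tcf7l2, 1.82 for Slitrk6, 1.99 for Prox1 and 1.25 for Rora. Of these 2 blocks only fractions 9, 10 and 11 shared a slide across the blocks. That fit thus set fraction 9 alone against fractions 10 and 11, and cannot decide whether the 4 calls hold. All 4 calls against fractions 10 to 12 were lost without fraction 7, without fraction 8, without fraction 11 and without fraction 12.

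Along the horizontal plane nothing passed the adjusted threshold. limma called 0 of 32262 probes (0%) and 0 of 8 genes for fractions 3 to 6 against the ends, while 13.4% of the probes and 5 of the genes passed an unadjusted p under 0.05, all 5 higher in the middle, where 5.57% of the probes were. These were Slitrk6 (1.24 ± 0.30), Tcf7l2 (1.88 ± 0.48), Foxp2 (0.71 ± 0.19), Prox1 (1.38 ± 0.45) and Rora (0.77 ± 0.28), with adjusted p between 0.315 and 0.341. Gbx2 had 1.87 ± 0.93, and without fraction 2 its difference was 0.81. Lef1 (-0.16 ± 0.17) and Sox14 (-0.59 ± 0.42) had the opposite sign, which follows their highs in fractions 1 and 2. Fractions 3 and 4 lay on slide 5 and the others on slide 1, and within slide 1 the difference of Tcf7l2 was 1.30 and that of Slitrk6 1.26.

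Along the sagittal plane, 4 of the 8 genes were called higher in fractions 4 to 8 than in fractions 1 to 3 and 9 to 11, and none lower, where 12.5% of the 33044 probes were called, 5.81% higher and 6.73% lower. Slitrk6 was 3.93-fold higher (log2 difference 1.98 ± 0.33, adjusted p = 0.0117), Sox14 3.03-fold (1.60 ± 0.38, adjusted p = 0.0271), Tcf7l2 6.81-fold (2.77 ± 0.68, adjusted p = 0.0302) and Prox1 1.94-fold (0.96 ± 0.28, adjusted p = 0.0483). The value of Sox14 includes 5 outer fractions that were not well above background, and with normexp background correction it was 0.15 ± 0.09 (adjusted p = 0.176). Lef1 (0.26 ± 0.08, adjusted p = 0.0612), Gbx2 (2.82 ± 0.89, adjusted p = 0.0640), Foxp2 (0.99 ± 0.41) and Rora (0.61 ± 0.28) were not called. All 7 genes of the cortex list peaked in fractions 1 to 3. Their summed log2 level was 4.78 to 6.23 there, 4.09 to 4.45 in fractions 4 to 8 and 4.75 to 5.94 in fractions 9 to 11, and 5 of the 7 were called lower in the middle. All 5 hindbrain, all 5 tested midbrain, 4 of 7 hypothalamus and 4 of 5 olfactory bulb genes were called higher there. The cerebellum, striatum and hippocampus lists had at most 1 call in either direction. The part of other regions in the differences of the 8 genes was not tested. With slide as a block no member was called, and the differences were 1.41 for Slitrk6, 1.14 for Sox14, 1.79 for Tcf7l2 and 0.45 for Prox1. Fractions 1, 10 and 11 lay on other slides than the rest. The fit with slide thus compared fractions 4 to 8 with fractions 2, 3 and 9 only, and cannot tell a slide effect from the loss of the outermost fractions. Slitrk6 kept its call without any 1 of the 11 fractions, Sox14 lost it without fraction 2, 4, 5, 6, 7, 10 or 11, and Tcf7l2 and Prox1 held only without fraction 3 and without fraction 9.

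**Figure D4:**
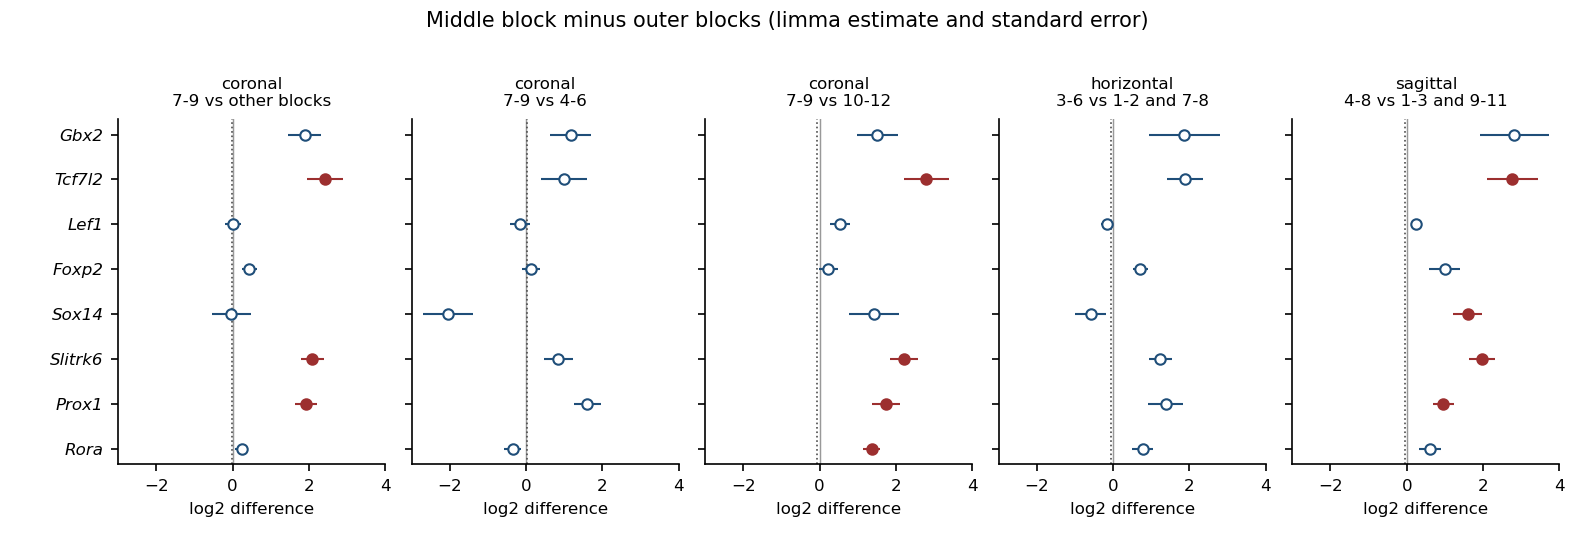
Log2 difference between the middle block and the outer blocks (x axis, log2 units) for the main probe of each gene (y axis) in the 5 comparisons; points are limma estimates, bars are standard errors, filled points passed an adjusted p under 0.05 and the dotted line is the median of all probes tested. Tcf7l2, Slitrk6 and Prox1 are filled in the same 3 comparisons, and neither the horizontal panel nor the panel against fractions 4 to 6 has a filled point.

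Fractions whose numbers add up to 12 were set against each other in the sagittal plane, taking fraction 6 as the middle, which the labels do not state. Tcf7l2 was alike on both sides in the inner 3 pairs, which differed by at most 0.15 in log2 level, and was higher on the high-numbered side by 1.70 in fractions 1 and 11 and by 2.06 in fractions 2 and 10. Gbx2 was higher on that side in all 5 pairs, by at least 1.73 in the outermost, where fraction 1 was not well above background, and by 2.08, 0.45, 0.20 and 0.02 from there inwards. Sox14 was higher in fraction 3 than in fraction 9, which was not well above background, by at least 1.30, and in 2 of its pairs neither fraction was measured. Lef1 differed by at most 0.20 and Foxp2 by at most 0.15 in any pair. Sagittal fraction 1 lay on slide 3, fractions 2 to 9 on slide 4 and fractions 10 and 11 on slide 5, and the part of the slides in these differences was not tested.

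The difference of each gene from Tcf7l2 was tested with exact two-sided permutation tests over the fractions of a plane, 21 comparisons in all. The outcome depended on the Tcf7l2 probe, and the reason was not tested. With the main probe 8 comparisons passed, with A_55_P2260094 5 and with A_55_P2143724 only 2, and no comparison passed with all 3 probes. With the main probe the coronal contrast between the middle and the other fractions was smaller than that of Tcf7l2 for Lef1 (by a log2 difference of -2.42, adjusted exact p = 0.0385), Foxp2 (-1.99, adjusted exact p = 0.0369), Sox14 (-2.46, adjusted exact p = 0.0369) and Rora (-2.19, adjusted exact p = 0.0369). For Gbx2 (-0.53), Slitrk6 (-0.34) and Prox1 (-0.51) it was not shown to differ, with adjusted exact p between 0.554 and 0.621. In the sagittal plane, again with the main probe, Lef1 (-2.51), Foxp2 (-1.78), Prox1 (-1.81) and Rora (-2.16) were past the threshold, with adjusted exact p between 0.0369 and 0.0398, and Gbx2 (0.06), Slitrk6 (-0.79) and Sox14 (-1.17) were not. In the horizontal plane, with 8 fractions, the smallest exact p was 0.0286 and no comparison passed after adjustment, Lef1 (-2.05) and Sox14 (-2.48) coming nearest (adjusted exact p = 0.060). With A_55_P2260094 the same 4 genes passed in the sagittal plane (adjusted exact p = 0.0455 for each) and Sox14 alone in the coronal plane. With A_55_P2143724, whose coronal contrast of 0.50 was close to that of Foxp2 (0.44), the genes past the threshold were Prox1 in the coronal and Slitrk6 in the sagittal plane, both with the larger contrast. These tests take the fractions as independent, which neighbouring slices of 1 brain are not.

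Profiles were compared by Pearson's r within each plane, as a description over fractions that share a mouse and in part a slide. Over the 28 pairs of the 8 genes the median r was 0.52 in the 15 coronal, 0.45 in the 8 horizontal and 0.82 in the 11 sagittal fractions. Slitrk6 and Prox1 were the pair with the highest smallest r, with 0.82, 0.92 and 0.86, followed by Foxp2 and Slitrk6 with 0.81, 0.82 and 0.78. Tcf7l2 and Slitrk6 reached 0.91 in the coronal and 0.97 in the sagittal plane but 0.54 in the horizontal plane, where Tcf7l2 was closest to Rora (0.90). Lef1 and Sox14 had r = 0.95 over the 8 horizontal fractions, in which both were highest in fractions 1 and 2, but -0.05 over the coronal ones. Gbx2 and Sox14 ran from -0.87 in the horizontal plane to 0.85 in the sagittal plane, and without horizontal fraction 2 the former was -0.68.

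**Figure D5:**
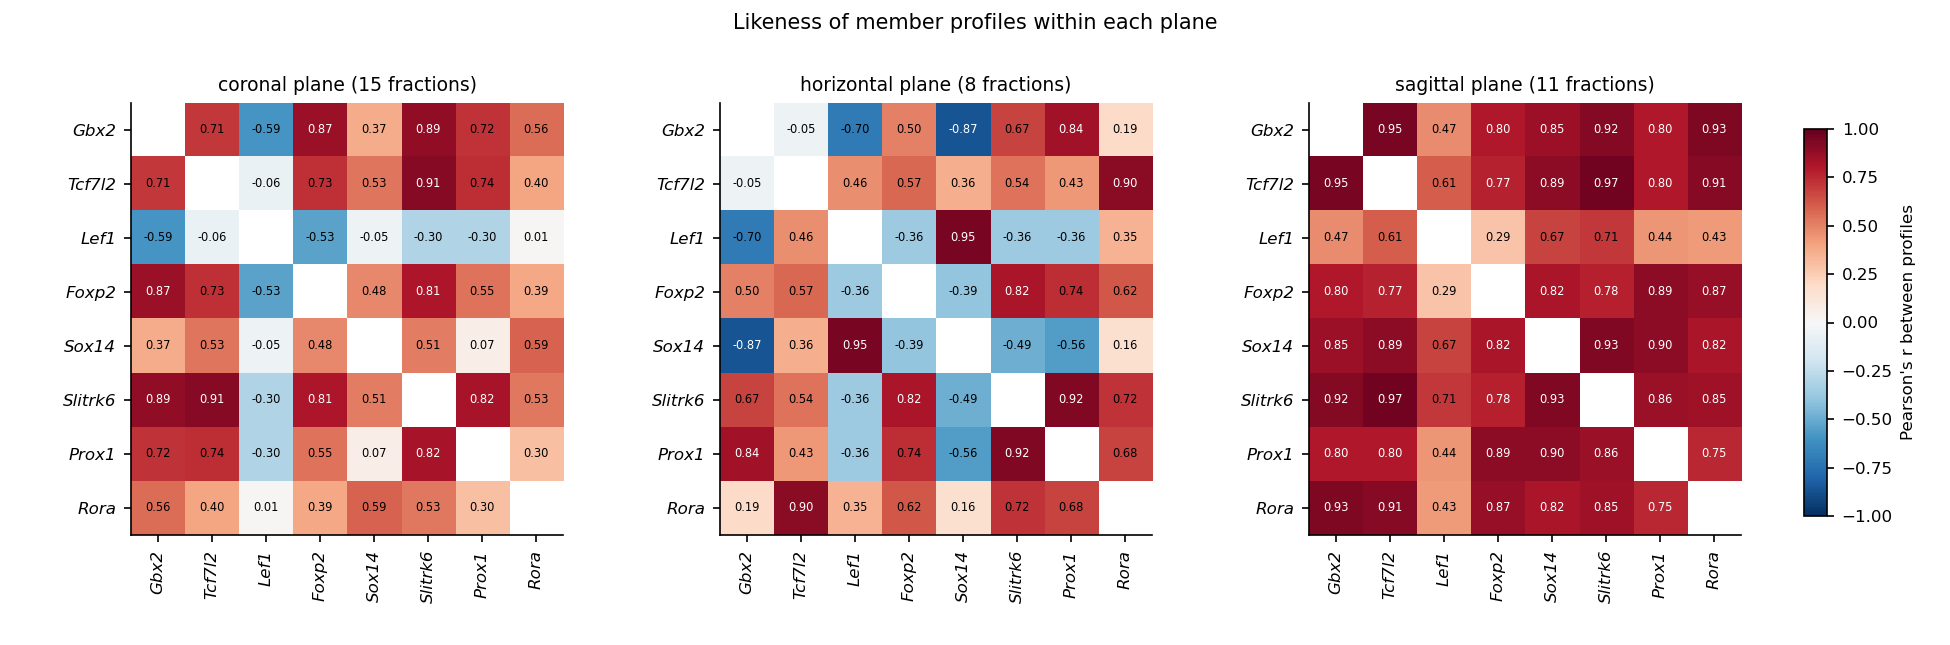
Pearson's r between the profiles of each pair of genes (colour and printed value) over the 15 coronal, 8 horizontal and 11 sagittal fractions. Lef1 is negative against 6 of the 7 other genes and 0.01 against Rora in the coronal panel, and no pair is negative in the sagittal panel.

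The names of the closest genes depended on the measure of likeness, as only 6 of the 24 genes named next were also among the closest 3 by Spearman's rho and 7 by r over all 34 fractions after removing plane means. Lhx9 for Tcf7l2 and Slitrk6 for Prox1 were among them by all 3 measures, whereas none of the 3 for Slitrk6 was by either other measure. Among 15119 other genes detected in at least 17 fractions, the gene closest to Tcf7l2 by the smallest of the 3 values of r was Lhx9, a LIM homeobox gene, with 0.93, 0.98 and 0.93 in the coronal, horizontal and sagittal planes. The next, Cachd1, had a smallest r of 0.79, followed by Pcm1 (0.78). For Sox14 the closest were Tal1 (0.88), Pax7 (0.87) and Irx6 (0.87), of which Tal1 is on the GABAergic list and Pax7 on the midbrain list. For Prox1 they were Slitrk6 (0.82), Prkch (0.80) and Ppm1n (0.77), and for Slitrk6 they were Fign (0.86), Mgat4c (0.86) and Chml (0.85). Gbx2 was closest to Id4 (0.89), Pkp2 (0.88) and Slc39a12 (0.87), and Rora to Uncx (0.90), Cpne9 (0.89) and Tmem132c (0.88). Foxp2 was closest to Cntnap5b (0.81), Rps6ka6 (0.80) and Zrsr2 (0.78), and Lef1 had no gene above Stx3 (0.64), Bnc2 (0.60) and Amotl1 (0.58).

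Other genes known from the thalamus were read from lists. Of 19 thalamic relay genes, none passed in the coronal comparison with the other blocks, while 16 had a positive log2 difference and their median was 0.59. Against fractions 10 to 12, where 1.60% of all probes were called, 3 of the 19 rose and none fell. They were Ntng1 (2.21 ± 0.45), Slc17a6, the vesicular glutamate transporter (2.10 ± 0.27), and Kitl (1.03 ± 0.20). In the sagittal plane, where 12.5% of all probes were called, 6 rose and 3 fell, among them Zfhx3 (1.96 ± 0.51), Slc17a6 (1.39 ± 0.25) and Ntng1 (1.25 ± 0.16) upwards and Lhx2 (-0.95 ± 0.18) downwards. Lhx9 belongs to this list too and had a coronal difference of 2.35 ± 0.65 with an adjusted p of 0.0840. The summed log2 level of the list ran from 5.56 in fraction 1 to 6.49 in fraction 8. Of its 19 genes 5 peaked in fractions 7 to 9 and as many in fractions 13 to 15. Fractions 4 to 6 and fractions 10 to 12 held 4 peaks each, and fractions 1 to 3 held 1.

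Of 7 tested habenula genes, Nr4a2 alone rose in the coronal comparison with the other blocks (1.67 ± 0.34, adjusted p = 0.0451), where 1.12% of all probes were called. The cortex list holds Nr4a2 too. Pou4f1 (2.85 ± 0.38) and Irx2 (3.19 ± 0.67) rose against fractions 10 to 12, where 1.60% of all probes were called. Both peaked in fraction 3, however, and had differences of -1.81 and -2.28 from fractions 4 to 6, without a call. Sagittally, where 5.81% of all probes were called higher and 6.73% lower, 4 of 8 rose and Nr4a2 fell by 1.91. Of 15 genes of prethalamic and rostral thalamic GABAergic neurons, the group in which Sox14 is known, none passed in the coronal comparison with the other blocks and the median difference was 0.15, and 5 rose and Npy fell in the sagittal plane. The risers were Gata3 (3.24 ± 0.82), Tal1 (1.68 ± 0.34), Lhx5 (1.73 ± 0.39), Tal2 (1.46 ± 0.31) and Gad1, which makes GABA (0.44 ± 0.11).

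Of 18 partners and known targets of the TCF/LEF factors, none passed in the coronal comparison with the other blocks, 5 had a positive difference and the median was -0.13, and in the horizontal plane 12 of the 18 peaked in fractions 1 and 2, where 38.5% of all genes did, and in the sagittal plane 10 of the 18 in fractions 4 to 8, where 35.1% did. Their likeness to Tcf7l2 was not tested. Axin2, the usual readout of the pathway, had a coronal difference of -0.20 ± 0.21, and Ctnnb1, which encodes beta-catenin, one of 0.20 ± 0.08, both without a call. Sp5 alone passed, falling by 1.98 ± 0.32 against fractions 4 to 6 (adjusted p = 0.0316) and rising in the sagittal plane (1.09 ± 0.23, adjusted p = 0.0185). Of all probes 0.201% were called against fractions 4 to 6 and 12.5% in the sagittal plane. Of 16 tested paralogues of the 8 genes, Tcf7l1 alone was called in the coronal comparison with the other blocks, lower in the middle (-0.57 ± 0.12, adjusted p = 0.0448), where Tcf7l2 was higher. That comparison called 1.12% of all probes. Tcf7 had -0.47 ± 0.16 without a call. Of the SLITRK paralogues, Slitrk4 (0.45 ± 0.17) and Slitrk1 (0.53 ± 0.18) had the larger coronal differences and neither was called, and Rorb, the paralogue of Rora, fell in the sagittal plane by 0.52 ± 0.13 while Rora was not called there. Sox3 (0.63), Sox21 (0.59) and Sox2 (0.50) rose in that plane.

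With slide as a block, none of the sagittal calls among these lists held (9 thalamic relay, 5 habenula, 6 GABAergic, 4 paralogue and 1 TCF/LEF genes). That fit left out the outermost sagittal fractions 1, 10 and 11. Nor did any of their coronal calls against the other blocks or against fractions 4 to 6 hold. Against fractions 4 to 6 the fit compared fractions 7 and 8 only, without fraction 9, and cannot decide those calls for the whole middle block. Against the other blocks it set fractions 7 and 8 against fractions 1 to 6, and fraction 9 alone against fractions 10, 11 and 13 to 15. Against fractions 10 to 12 the fit compared fraction 9 alone with fractions 10 and 11, so it cannot decide those calls. The direction of each call was the same with and without slide in the fit.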

How the data were processed

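Single-colour Cy3 arrays of 34 fractions from 3 mice were read. The deposited scanner files hold a Feature Extraction (10.10.1.1) processed signal for each spot, an intensity that the authors' scanner software had corrected for background. The authors also deposited a table of normalized log2 values, which was used as an alternative. No replicate arrays exist, and the number of arrays limits the precision. Intensities of repeated spots were averaged per probe, and the log2 of the 75th percentile of each array was subtracted from the log2 signal. A probe counted as detected where the scanner software marked the majority of its spots as well above background. Probes detected in at least 3 fractions of a plane entered the limma fits on block means, with a Benjamini-Hochberg adjusted p under 0.05 as the threshold. The fits were tested on simulated data. Likeness was Pearson's r within a plane among genes detected in at least 17 fractions. R 4.3.3, limma 3.58.1, Python 3.11.15, numpy 2.4.6, pandas 2.3.3, scipy 1.17.1 and matplotlib 3.10.9 were used.

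Fractions were grouped by the plane and number in their labels. The 8 genes and the 13 gene lists were chosen with earlier results of these data known. Of 133 list entries 132 matched a probe, a gene on different lists being counted for each. The text names all 8 genes, the 3 genes most like each by the smallest within-plane r, and up to 4 genes per list among those past the threshold. Lhx9, Kitl, Lhx5, Npy, Axin2, Ctnnb1, Tcf7, Slitrk1, Slitrk4 and Rorb were named in addition, after their values were seen. Alternatives covered scaling, normexp background correction on the median spot signal with an offset of 50, the dim-probe filter, the prior of the fit, slide, block width and each fraction left out.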

Additional observations from a re-analysis of the deposited data

Results flagged for a closer look

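The lowest of the 8 horizontal log2 levels of Gbx2, -5.81 in fraction 2, lay far from the others. The nearest level was -1.95, and the gap made up 0.589 of the whole range, above the critical value of 0.526 for 8 values in Dixon's test. The probe was not well above background there. This was the only such case among the 32 groups of 4 to 10 fractions searched, and chance gives about 1 in 20.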

How the results depend on the processing

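Every fit rests on a few neighbouring fractions of 1 brain, and the counts of calls moved widely with the processing, while the called differences of Tcf7l2, Slitrk6 and Prox1 were positive in every setting run. Log2 levels of Gbx2 in all 3 planes and coronal and sagittal levels of Sox14 include fractions that were not well above background. No paired analysis was possible because each fraction has a single array and its number is a position along 1 plane. Beyond what is given here, the cause of these changes was not tested.

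The coronal comparison of fractions 7 to 9 with the other blocks called 378 probes. The count was 95 with the array median, 822 with normexp, 47 without a filter, 826 among probes detected in every fraction, 920 with a trended prior, 60 with slide as a block, 97 within slide 2 and 2 within slide 3, with 0 members called within either slide. With fractions 6 to 10 as the middle it was 0 by limma, with 5750 probes and 3 members at an unadjusted p under 0.05. Leaving out 1 fraction gave 1 probe (without fraction 8) to 1942 (without fraction 13) and 0 to 5 members.

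Against fractions 4 to 6 the count was 68. It was 118 with normexp, where Prox1 as the 1 member was called, 22 among probes detected in every fraction, 131 with a trended prior, 16 with slide as a block, 4 within slide 2 and 40 without slide 5. Leaving out 1 fraction gave 8 (without fraction 8) to 166 (without fraction 6) probes and 0 members.

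Against fractions 10 to 12 the counts were 542 probes and 4 members. They were 121 and 2 with the array median, 73 and 0 without a filter, 17 and 0 with slide as a block, 2 and 0 within slide 3 and 19 and 0 without slide 5. Detection in every fraction gave 1263 probes and a trended prior 1269. Leaving out 1 fraction gave 7 (without fraction 11) to 2996 (without fraction 10) probes and 0 to 4 members.

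The horizontal count of 0 probes became 2 with the array median and 2 with quantile normalization, and ran from 0 to 2 with 1 fraction left out, with 0 members. In the sagittal plane 4144 probes and 4 members were called. Counts were 12699 probes with normexp, 1407 and 1 without a filter, 9 and 0 with slide as a block, 20 and 0 within slide 4, 10 and 0 without slide 5, and 9796 and 8 for a slope over the distance from fraction 6. Leaving out 1 fraction gave 1264 (without fraction 7) to 5146 (without fraction 3) probes and 1 to 6 members. Without horizontal fraction 2, a choice made after seeing the data, the median r of the 28 pairs was 0.50. Of the 21 comparisons with Tcf7l2, 8 passed on its main probe, 2 on A_55_P2143724 and 5 on A_55_P2260094, both added after seeing the data.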
